A study of Oryza sativa with 12 samples.

Results

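Transcript levels differed between salt and water at a large part of the genes measured in germinating rice seeds of an OsMFT1 knockout. The comparison set 3 RNA-seq libraries of OsMFT1 knockout seeds (osmft1) in 300 mM NaCl against 3 libraries of osmft1 seeds in water. Its members were the gene IDs listed at 1 FPKM or more in at least 3 of these 6 libraries, 20632 of the 35204 IDs in the files (58.6%). FPKM is the number of counted reads scaled to the length of the gene and to the total reads of its library. Of these members, 510 passed through the 3 water libraries alone and 399 through the 3 salt libraries alone, so that for them the filter itself required a difference.

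The 12 libraries of the study were made from whole seeds, 3 for each of 4 groups: osmft1 in water, osmft1 in salt, Zhonghua 11 (the wild type, WT) in water and WT in salt. All seeds were surface-sterilised with ethanol and hypochlorite and kept on wet filter paper in a chamber with light and dark periods, the water or salt solution being renewed daily. The labels give neither the knockout's allele, the number of its lines, the seeds per library, nor the time of sampling. The response to salt and a difference in germination stage between the groups cannot be told apart. They also do not state whether libraries of a group came from separate seed lots, so the p-values below cover the spread among libraries that may be technical repeats.

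Salt around a germinating seed slows the uptake of water and brings sodium and chloride into the tissues, and germination is delayed or stopped. Seeds respond through abscisic acid, which holds germination back, and gibberellin, which promotes the use of stored reserves. OsMFT1 belongs to the MOTHER OF FT AND TFL1 genes, whose Arabidopsis member acts in seed germination through both hormones. The files list IDs with no gene names, and no role can be given here to an ID. The genes are therefore described by their levels, lengths and places in the genome. Markers of seed parts could not be checked for the same reason. In whole seeds, fewer cells of a type and less RNA per cell cannot be told apart.

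The locus taken as OsMFT1 from published knowledge, Os06g0498800, was near the limit of detection in every library. In osmft1 seeds it stood at 0.672, 0.0840 and 0.0826 FPKM in water and at 0.685, 0.177 and 0.616 FPKM in salt. The groups overlapped, with means of 0.280 ± 0.340 and 0.493 ± 0.276 FPKM (SD, n = 3). The difference of 0.24 in log2(FPKM + 1) gave p = 0.300 in an exact permutation test (two-sided), in which 3 libraries against 3 cannot go below 0.1. WT seeds held 0.305 ± 0.255 FPKM in water and 0.288 ± 0.214 FPKM in salt (SD, n = 3). Over all 12 libraries it had 1 to 8 reads, with exact 95% Poisson intervals of 0.0253 to 5.57 reads for the lowest count and 3.45 to 15.8 reads for the highest. A difference was not detectable at this depth, and the level of this locus does not check the genotype labels.

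The depth was even. The steps between low values gave 15134798, 15153379 and 15402663 reads for the osmft1 water libraries 1 to 3, and 14856330, 14379728 and 14460808 reads for the salt libraries 1 to 3. The WT libraries raised the range to at most 15688593 reads. The osmft1 salt library numbered 1 stood above the other osmft1 salt libraries at many genes that fell, and the counts this moves are given with and without it. Over all members it did not stand out. The chi-square of reads per degree of freedom was 17.1 and 16.3 between it and salt libraries 2 and 3, and 18.9 between those. It was 17.7 and 24.8 between water library 1 and water libraries 2 and 3, and 8.09 between those. Estimated library weights were 0.405 (the lowest), 6.57 (the highest) and 0.914 for water libraries 1 to 3. They were 1.04, 0.568 and 0.694 for salt libraries 1 to 3.

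Salt and water differed at 9072 of the 20632 members at an adjusted p under 0.05 (limma on log2(FPKM + 1), Benjamini-Hochberg over all members), 44.0% of those tested. Of these, 4223 (20.5%) were higher in salt and 4849 (23.5%) were lower. The members that passed the filter through 1 group alone were nearly all called, 463 of 510 and 368 of 399. Without them 8241 of 19723 members were called (41.8%), 3855 higher and 4386 lower. Most of the changes were moderate. The median log2 difference was 0.89 among the IDs that rose, with quartiles of 0.63 and 1.37, and -0.86 among those that fell, with quartiles of -1.20 and -0.64. The median over all members was -0.11. Adding 1 FPKM before taking log2 makes the differences of genes at low levels smaller than their true ratios.

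With all 6 libraries, more IDs rose than fell at 4-fold and above, and this excess was smaller or turned without salt library 1. At least 2-fold, 1798 IDs rose (8.71%) and 1823 fell (8.84%). At least 4-fold, 419 rose and 263 fell, at least 8-fold 127 and 56, and at least 16-fold 31 and 11. Without salt library 1 the 4-fold numbers were 441 and 364, the 8-fold numbers 123 and 115, and the 16-fold numbers 30 and 39, so that the order at 16-fold turned. With a pseudocount of 0.1, 328 rose and 266 fell at least 8-fold. The near-even numbers at 2-fold held under some other settings, with 1802 rises and 1799 falls under a replicate block and 1786 and 1826 in the fit of all 12 libraries. They did not hold under others, with 2085 rises and 1530 falls under median-ratio scaling and 2192 and 2654 with voom on recovered reads.

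**Figure D1:**
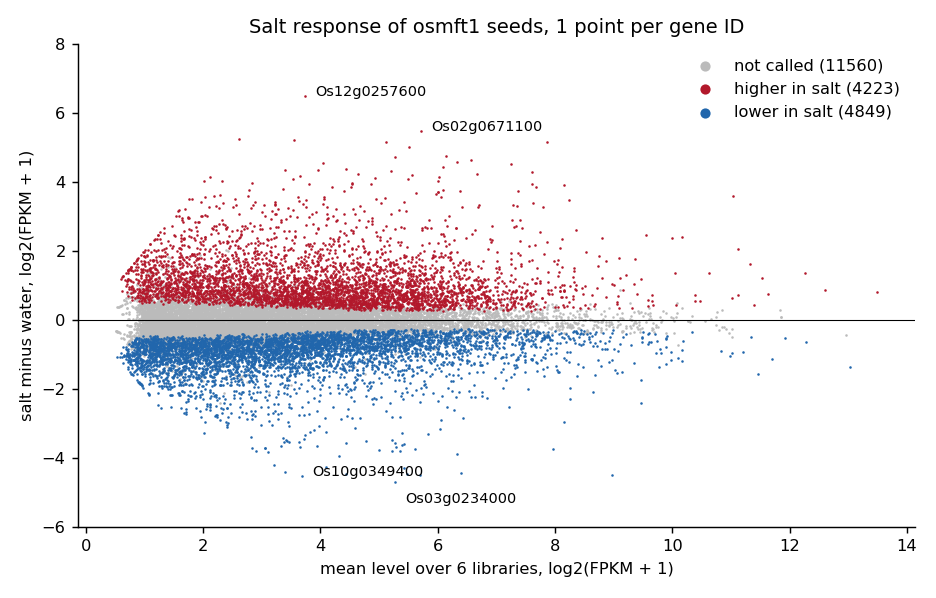
Difference between salt and water in osmft1 seeds (vertical axis, log2(FPKM + 1)) against the mean level over the 6 libraries (horizontal axis, log2(FPKM + 1)), 1 point per member. The 4223 IDs higher in salt reach a log2 difference of 6.49, and the 4849 lower IDs reach -4.69.

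The split between rises and falls depended on the scaling. With the values as deposited, 46.5% of the called IDs were higher in salt. With median-ratio scaling between libraries, which moved the median of all members from -0.11 to -0.02, 4905 IDs were higher and 4160 lower, so that the majority turned. The total was 9065, and 8328 of these had the same direction in both fits. No member was called in opposite directions by these fits.

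The separation of single libraries gave a similar picture. All 3 salt libraries lay above all 3 water libraries at 5245 members (25.4%), and below all 3 at 6319 (30.6%). Of the called IDs, 4208 rises and 4784 falls had this full separation, and 80 calls had overlapping libraries. A further 2572 members separated fully and were not called. The median SD within a group, on the log2(FPKM + 1) scale, was 0.19 in water and 0.20 in salt.

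The 2 largest rises were at Os12g0257600 on chromosome 12 and Os02g0671100 on chromosome 2, chosen by the size of the log2 difference among called IDs with at least 10 FPKM in the higher group and no overlap. Os12g0257600 held 0.484, 0.451 and 0.285 FPKM in the 3 water libraries and 149.5, 98.0 and 133.7 FPKM in the 3 salt libraries. Every salt library was far above every water library. This ID was under 1 FPKM in every water library and passed the filter through the salt libraries alone, so the filter itself required a difference. Its mean went from 0.407 ± 0.106 to 127.1 ± 26.4 FPKM (SD, n = 3). The log2 difference was 6.49 ± 0.18 (SE), with a limma adjusted p of 3.65e-06. The reads behind it were 38 in water and 11393 in salt.

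Os02g0671100 held 9.37, 5.86 and 5.77 FPKM in water and 255.4, 404.3 and 414.1 FPKM in salt. The groups were wide apart, and salt library 1 was the lowest of the salt libraries. Its mean went from 7.00 ± 2.05 to 357.9 ± 89.0 FPKM (SD, n = 3). The log2 difference was 5.48 ± 0.24 (SE), with a limma adjusted p of 1.60e-05. Without salt library 1 the log2 differences of these IDs were 6.36 and 5.71, and they remained the 2 largest rises.

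The 2 largest falls were at Os03g0234000 on chromosome 3 and Os10g0349400 on chromosome 10. Os03g0234000 held 112.8, 241.3 and 269.2 FPKM in water and 38.9, 2.73 and 1.90 FPKM in salt. The groups did not overlap, but salt library 1 was more than 10 times as high as the other salt libraries, with 295 reads against 20 and 14. Its mean went from 207.8 ± 83.4 to 14.5 ± 21.1 FPKM (SD, n = 3). The log2 difference was -4.69 ± 0.93 (SE), with a limma adjusted p of 0.00582.

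Os10g0349400 held 46.1, 43.7 and 111.2 FPKM in water and 17.7, 0 and 0 FPKM in salt. Its transcripts were counted 109 times in salt library 1 and not at all in the other salt libraries, where a count of 0 allows up to 3 reads. Its mean went from 67.0 ± 38.3 to 5.91 ± 10.2 FPKM (SD, n = 3). The log2 difference was -4.54 ± 1.08 (SE), with a limma adjusted p of 0.0123. Without salt library 1 the fall of Os03g0234000 was -5.89 ± 0.37 and that of Os10g0349400 was -5.95 ± 0.40 (SE), with limma adjusted p of 0.000257 and 0.000294. The ranking of falls then began with Os10g0551800 (-5.97), an ID named only for this change of order.

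**Figure D2:**
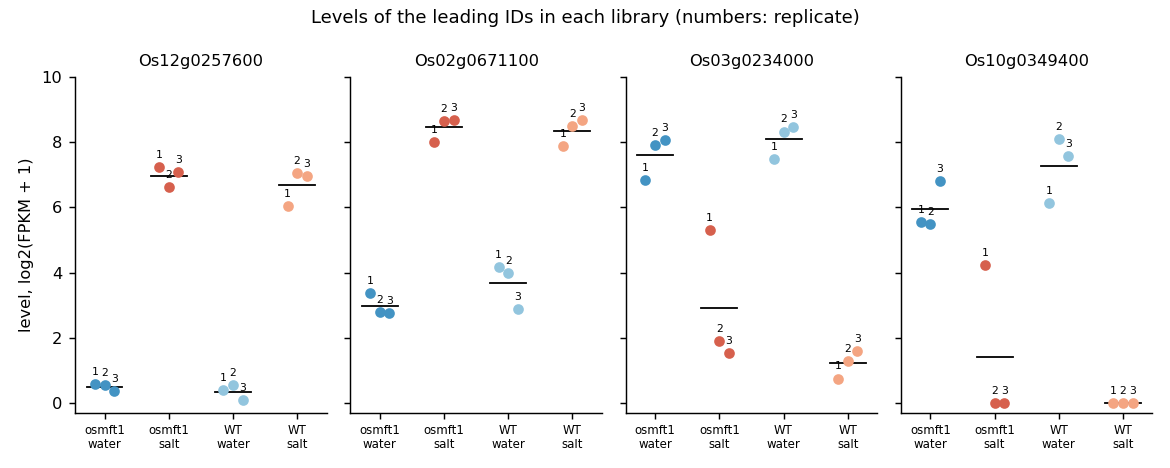
Level of the 4 leading IDs in every library (vertical axis, log2(FPKM + 1)), by genotype and treatment, with replicate numbers beside the points and a line at each group mean. At Os03g0234000 and Os10g0349400 the osmft1 salt library 1 (38.9 and 17.7 FPKM) lies far above the other 2 osmft1 salt libraries.

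Salt library 1 showed the rises in nearly full size and the falls in part. For each library, its place between the groups was taken as the percent of the response, 0 being the water mean and 100 the salt mean of the other libraries, at IDs that differed at least 2-fold when that library was left out. At 1960 rising IDs, salt library 1 stood at a median of 94.6% (25th to 75th percentile 79.4 to 107.5%). At 2130 falling IDs it stood at 74.4% (56.0 to 91.9%). This library was thus nearer to water at the falls than at the rises.

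The other osmft1 salt libraries did not show this gap. Salt library 2 stood at 97.7% of the falls (65.2 to 122.5%) and 97.3% of the rises (83.6 to 110.8%). Salt library 3 stood at 110.4% of the falls (88.7 to 129.4%) and 98.5% of the rises (83.4 to 110.2%). The water libraries 1 to 3 stood at 8.69, 5.29 and 7.59% for the falls and 10.7, 0 and -2.53% for the rises. In WT, the 3 salt libraries stood at 99.1, 100.5 and 95.5% of the falls and 87.2, 109.4 and 94.1% of the rises, each set chosen in WT in the same way. WT salt library 2 also had a lower percent at the falls than at the rises, but both its medians were above 100%. The percentiles describe the spread over IDs, and no test was made of the place of 1 library.

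**Figure D3:**
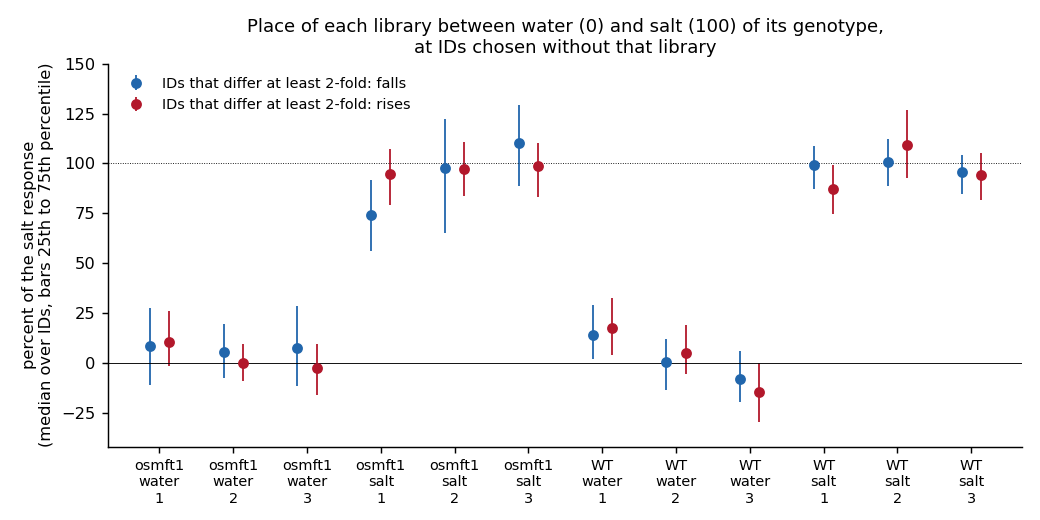
Place of each library between the water (0) and salt (100) mean of its genotype, in percent of the response (vertical axis), as the median and the 25th to 75th percentile over IDs chosen without that library. The osmft1 salt library 1 is the only salt library whose median for falls (74.4%) is below 90%.

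The part of the gap between water and salt that salt library 1 did not cross was larger the deeper the fall. The gap was the water mean minus the mean of salt libraries 2 and 3, in FPKM. The part not crossed was the level of salt library 1 above that salt mean, in percent of the gap. Its median was 15.1% (3.94 to 28.2%) at the 2130 IDs that fell at least 2-fold in salt libraries 2 and 3. At the 366 IDs with falls of at least 4-fold it was 19.1% (12.4 to 32.4%), and at the 115 IDs with falls of at least 8-fold 21.7% (15.5 to 31.2%). Salt library 1 lay above both other salt libraries at 1452 (68.2%), 331 (90.4%) and 111 (96.5%) of these IDs. These ratios are linear in FPKM and are a description, since salt libraries 2 and 3 chose the IDs.

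Leaving out salt library 1 kept the main outline. Then 7820 IDs were called, 3738 higher and 4082 lower, and 7473 of them were called in the same direction with all 6 libraries (82.4% of the 9072 and 95.6% of the 7820). None turned. At least 2-fold rises numbered 1873 and falls 2000, against 1798 and 1823 with the library. The median SD was 0.18 over the 2 remaining salt libraries and 0.20 over all 3. At equal spread the median SD of 2 libraries is lower than that of 3, so these values do not show a tighter group.

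A small number of genes switched between undetected and present. In the water libraries 48 IDs were under 0.1 FPKM in all 3, and at 1 FPKM or more in all 3 salt libraries. Of these, 36 had no read at all in water. The salt means of all 48 IDs had a median of 2.73 FPKM and reached 40.0 FPKM. In the opposite direction, 25 IDs were at 1 FPKM or more in all water libraries and under 0.1 FPKM in all salt libraries, 23 of them with no read in salt. These thresholds select IDs that differ, so the counts carry no test.

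The number of silenced genes rested on salt library 1. With salt libraries 2 and 3 alone, 131 IDs met the condition for loss in salt, and 106 of these were at 0.1 FPKM or more in salt library 1. Over the 131 IDs the median in that library was 0.643 FPKM, 24.5% of the water level, whose median was 2.57 FPKM. The number of IDs that appeared in salt was 48 with or without the library.

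The most abundant transcripts were partly exchanged. The 100 IDs with the highest mean FPKM in water and the 100 highest in salt had 68 IDs in common, 68% of each list. Of the 100 leading IDs of water, 44 fell, 15 rose and 41 were not called. Of the 100 leading IDs of salt, 40 rose, 15 fell and 45 were not called. A high level in 1 group chose these lists, so their directions are a description.

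Even so, the share of all FPKM taken by these leaders moved little. The 100 leading IDs of water held 23.5 to 26.6% of the summed FPKM in the water libraries and 21.6 to 23.2% in the salt libraries. The 100 leading IDs of salt held 20.9 to 23.4% in water and 24.9 to 26.1% in salt. The ranges of water and salt did not overlap for either list. Each list was chosen by high levels in its own treatment, which favours a larger share there. The lack of overlap is therefore a description and carries no test.

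Rises were more frequent among genes at higher levels. Over 8 equal groups of members by mean level, with 1.19 FPKM at the middle of the lowest and 94.9 FPKM at that of the highest, the percent called higher was 12.8, 14.5, 14.3, 16.4, 20.4, 23.2, 31.7 and 30.4. The percent called lower moved less, from 21.0 to 27.9. At low levels falls thus outnumbered rises, and in the group at 32.5 FPKM and the one above it rises outnumbered falls. Without salt library 1 the lowest group had 11.6% higher and 21.1% lower, and the highest 28.6 and 24.0%. The power of the test also grows with the level.

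Rises were rarer among long genes. The implied length of a gene is the smallest whole length that fits the steps of its values, and the 19396 members with Os locus IDs were put into 8 equal groups by it. From the shortest group (median 594 bases) to the longest (3469 bases), 22.4, 27.3, 23.9, 24.4, 23.8, 20.0, 15.8 and 11.1% were called higher. The percent called lower was 23.5 to 25.2 in every group. Among Os loci of the upper level range, 22.9% of the shortest group and 18.3% of the longest were higher. The highest percent in that range was 31.3, in the length group at 1404 bases. In the lower range, 21.9% of the shortest group and 7.37% of the longest were higher. The highest percent there was 25.2, in the group at 883 bases.

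**Figure D4:**
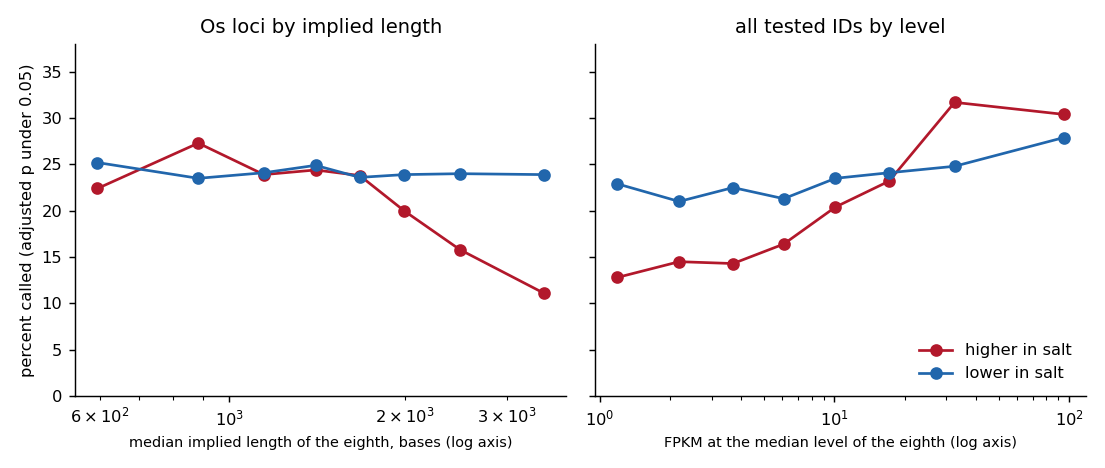
Percent of IDs called higher (red) and lower (blue) in salt, for 8 equal groups of Os loci by implied length (left, bases, log axis) and 8 equal groups of all members by level (right, FPKM, log axis). The longest group has 11.1% higher and 23.9% lower.

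A trend on length ran through single libraries and moved with this pattern. The median deviation of the longest group minus that of the shortest, on the log2 scale, was 0.34, -0.01 and -0.08 in water libraries 1 to 3 and -0.17, 0.10 and -0.23 in salt libraries 1 to 3. Water library 1 had the highest value of the 6. With the trend taken out of every library, 18.3% of the longest and 22.6% of the shortest group were called higher, and 20.4 and 26.1% lower. With median-ratio scaling it was 14.6 and 24.8% higher. Leaving out 1 library at a time, the longest group held 7.46 to 11.4% rises. Its falls moved more, with 14.6% without salt library 3, 16.3% without salt library 1, 27.7% without salt library 2 and 11.8% without both libraries numbered 1, against 23.9% with all 6. The part of this trend in single results was not tested beyond these fits.

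Short IDs outside the Os series were called less often. Of 1234 members with the prefix EPlOSAG, whose implied length had a median of 63 bases, 10.4% were higher and 13.5% lower, against 21.1 and 24.1% of the Os loci. They also stood lower, at 2.52 FPKM at the median level against 8.37 FPKM.

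The response was spread over all 12 chromosomes, as read from the locus numbers. The percent of Os loci called higher ran from 17.7 on chromosome 11 and 17.8 on chromosome 12 to 22.7 on chromosome 4 and 22.9 on chromosome 5. The percent called lower ran from 21.7 on chromosome 8 to 26.2 on chromosome 7. No chromosome was free of either direction, and no test was made between chromosomes.

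Neighbouring genes moved the same way more often than distant ones. Of 4115 pairs of adjacent tested Os loci that were both called, 2345 had the same direction (57.0%). The percent was 51.9 for loci 2 places apart, 51.0 for 5 places and 50.4 for 50 places. Pairs share libraries and can share reads where copies are near-identical or genes overlap, so this is given without a test.

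Runs of adjacent loci with the same call reached 9 members. There were 55 runs of at least 4 rising loci and 86 of at least 4 falling loci, and 19 and 23 of at least 5. With 21.1% of Os loci called higher and 24.1% lower, such runs also form among unlinked calls. Their expected number was not computed. The longest run held 9 loci on chromosome 6, whose mean levels were 0.586 to 13.3 FPKM in water and 2.51 to 90.8 FPKM in salt. All 9 rose, by 0.47 to 3.94 on the log2 scale (limma, highest adjusted p = 0.0333). Among them, Os06g0146600, Os06g0146700 and Os06g0147200 passed the filter through the salt libraries alone, so for these the filter itself required a difference. Without salt library 1, 8 of the 9 were called.

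The longest falling run held 8 loci on chromosome 5, at 2.73 to 158.6 FPKM in water and 0.606 to 100.1 FPKM in salt. Their log2 differences ran from -3.80 to -0.56 (limma, highest adjusted p = 0.0451). At the 2 largest falls salt library 1 was far above the others, at 45.8 FPKM for the largest fall, and at 30.6 FPKM against 9.78 and 6.22 for the next. Without it the range was -4.84 to -0.62, and all 8 were called. A run of 7 loci on chromosome 1 included 1 very abundant transcript, at a mean of 3067.2 FPKM in water and 7842.3 FPKM in salt, the other members being at most at 104.8 FPKM in any library. These 7 rose by 0.58 to 1.80 (limma, highest adjusted p = 0.0314). Among them, Os01g0254950 and Os01g0255100 passed the filter through the salt libraries alone. Whether the members of a run are copies of each other is not given in the files, and levels of near-identical copies are uncertain.

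Compared with WT, the osmft1 response was tested as a genotype by salt interaction over all 12 libraries at the same members. A positive value means a response that was more positive, or less negative, in osmft1. At an adjusted p under 0.05 (limma), 3000 members were called, 14.5% of those tested, 1558 positive and 1442 negative. This count moved with the removal of single libraries of either genotype. It was 1295 without osmft1 salt library 1, 947 without osmft1 water library 1, 947 without osmft1 salt library 3 and 1369 without osmft1 water library 2. Among the WT libraries it was 3701 without water library 1 and fell to between 1007 and 1796 without any other. It rose to 4334 without osmft1 salt library 2 and to 3359 without osmft1 water library 3. Without both osmft1 libraries numbered 1 it was 364, of which 348 were called in the same direction in the full fit. The balance of signs moved too, from 51.9% positive with all libraries to 69.8% without osmft1 salt library 1 and 82.7% without both.

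By medians, falls of at least 2-fold were shallower in osmft1 than in WT whichever genotype chose them, and the difference in the set chosen in osmft1 shrank without salt library 1. At the 1823 IDs that fell at least 2-fold in osmft1 the median log2 difference was -1.33 in osmft1 and -1.56 in WT, with 255 positive and 175 negative interaction calls (23.6%, against 14.5% of all members). At the 2742 IDs that fell at least 2-fold in WT it was -0.96 in osmft1 and -1.58 in WT, with 920 positive and 3 negative calls. Over all 20632 members the calls were 1558 positive and 1442 negative. Choosing IDs by the response of 1 genotype favours a larger difference in that genotype, which the first set has against it. The median interaction was 0.20 in the first set and 0.74 in the second, against -0.04 over all members. Without osmft1 salt library 1 it was 0.05 and 0.65 at the same IDs, and without both osmft1 libraries numbered 1 it was 0.04 and 0.59. At all 4849 called falls of osmft1 the medians were -0.86 in osmft1 and -0.82 in WT, the opposite order. With the 2-fold set chosen anew without salt library 1 (2000 IDs), the medians were -1.39 and -1.57, with 170 positive and 89 negative calls. The interaction fit without that library called 1295 of the 20632 members.

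Rises had medians close to each other in both genotypes at IDs chosen in osmft1. The 1798 IDs that rose at least 2-fold in osmft1 had a median of 1.47 in osmft1 and 1.44 in WT, with 133 positive and 40 negative interaction calls (9.62%, against 14.5% of all members). At the 2433 IDs that rose at least 2-fold in WT the medians were 1.10 in osmft1 and 1.42 in WT, with 20 positive and 458 negative calls, against 1558 and 1442 over all 20632 members. The direction of most responses was common to both genotypes. Of the IDs that changed at least 2-fold in osmft1, 1737 of the 1798 rises and 1679 of the 1823 falls had the same sign in WT. Of all called IDs, 3909 of the 4223 rises and 4293 of the 4849 falls did. Members not called in osmft1 shared the sign at 6813 of 11560.

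**Figure D5:**
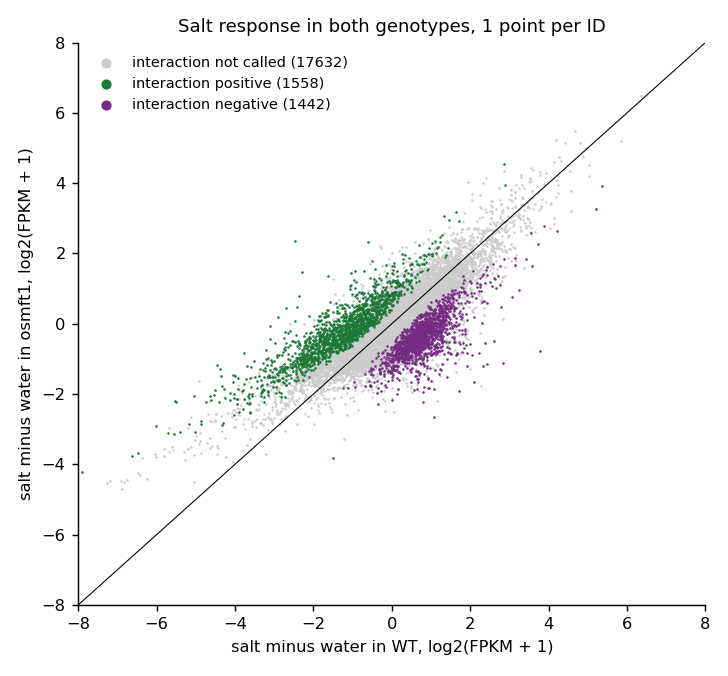
Salt minus water in osmft1 (vertical axis) against salt minus water in WT (horizontal axis), both in log2(FPKM + 1), 1 point per member, with the line of equal response. Members with a positive interaction (1558) lie above the line and those with a negative one (1442) below it.

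The leading rises and falls of osmft1 had the same direction in WT. Os12g0257600 stood at 0.311, 0.448 and 0.0643 FPKM in WT water and 64.8, 131.4 and 124.2 FPKM in WT salt, a log2 difference of 6.35 against 6.49 in osmft1. Os02g0671100 had a log2 difference of 4.67 in WT against 5.48 in osmft1. Their interactions were 0.14 ± 0.35 and 0.82 ± 0.47 (SE; limma, adjusted p = 0.801 and 0.240). Neither passed the threshold, and the intervals do not show that the genotypes respond alike.

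The leading falls were deeper in WT by value. Os03g0234000 stood at 0.678, 1.45 and 2.02 FPKM in WT salt, all below the 38.9 FPKM of osmft1 salt library 1 and near the 2.73 and 1.90 FPKM of the other osmft1 salt libraries. Os10g0349400 had no read in any WT salt library, as in osmft1 salt libraries 2 and 3. The interactions, 2.20 ± 1.11 and 2.73 ± 1.32 (SE), did not pass the threshold (limma, adjusted p = 0.178 and 0.163).

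The 2 interactions with the smallest p in each direction, among IDs at 10 FPKM or more in a group, were at IDs whose water levels did not overlap between the genotypes. Os07g0194300 held 18.0, 16.5 and 20.4 FPKM in osmft1 water and 11.2, 8.09 and 7.09 FPKM in osmft1 salt. In WT it held 49.7, 50.2 and 43.1 FPKM in water and 4.09, 4.91 and 3.92 FPKM in salt. It fell in both genotypes, from a higher water level to a lower salt level in WT, with an interaction of 2.20 ± 0.22 (SE; limma, adjusted p = 0.00295).

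Os02g0787000 overlapped between the osmft1 groups, with 10.6, 13.1 and 14.0 FPKM in water and 13.7, 13.2 and 11.7 FPKM in salt. In WT it went from 34.5, 42.3 and 39.6 FPKM to 11.5, 10.9 and 11.6 FPKM. The salt difference was not called in osmft1 (log2 difference 0.04; limma, adjusted p = 0.856), the WT groups were wide apart, and the interaction was 1.72 ± 0.17 (SE; limma, adjusted p = 0.00295).

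In the negative direction, Os07g0693800 fell in osmft1 from 13.6, 12.8 and 11.1 FPKM to 6.01, 5.45 and 6.05 FPKM. In WT it held 3.94, 3.85 and 4.23 FPKM in water and 5.75, 6.54 and 5.66 FPKM in salt. The salt levels of both genotypes overlapped, while osmft1 water was far above WT water, and the interaction was -1.46 ± 0.17 (SE; limma, adjusted p = 0.00381).

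Os04g0403300 fell in osmft1 from 462.1, 425.2 and 410.2 FPKM to 165.9, 168.8 and 141.3 FPKM. In WT it held 174.3, 149.2 and 144.2 FPKM in water and 120.1, 130.7 and 123.7 FPKM in salt. The osmft1 water libraries stood above all others, and the interaction was -1.13 ± 0.14 (SE; limma, adjusted p = 0.00641).

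Some responses were called in 1 genotype at IDs that moved little in the other. With a WT log2 difference within 0.5 of 0 and a called interaction, 226 IDs rose and 324 fell in osmft1. With an osmft1 log2 difference within 0.5 of 0, 674 IDs rose and 692 fell in WT. Without osmft1 salt library 1, 41.4% of all 3000 interaction calls were kept. The share kept was 57.1% of the 226 rises and 25.9% of the 324 falls of osmft1, and 22.3% of the 674 rises and 53.5% of the 692 falls of WT. Without both osmft1 libraries numbered 1 it was 11.6% of all calls, 16.8 and 5.25% of the osmft1 rises and falls, and 1.93 and 19.2% of the WT rises and falls. In each of these fits the positive calls among them, osmft1 rises and WT falls, were kept more often than the negative ones.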

How the data were processed

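The authors deposited 1 table per library with 1 value for each of 35204 gene IDs. No header states the unit, and the deposited values were treated as FPKM, since the step between low values differs from gene to gene in the way length scaling gives. Per the labels' protocols, total RNA went into libraries with the NEBNext Ultra kit. Named in the submitters' processing notes, without roles, are Bowtie2 2.2.3, HISAT2 2.1.0 and HTSeq 0.6.0, and the genome build is IRGSP-1.0. The annotation release was not given in the sources used here, nor were strandedness and the way FPKM were derived, and reads of antisense or overlapping genes cannot be told apart.

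Whole reads were recovered from the steps within 0.003 reads (at least 99.9971% of each implied total of 14379728 to 15688593 reads). They served for depth, exact 95% intervals, implied lengths and voom. With no molecular identifiers, these intervals, like the floor of 3 reads, hold for counting error alone.

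Members and rules were chosen with earlier results of these data known. Groups came from the sample titles. Log2(FPKM + 1), pseudocount 1, was fitted with limma 3.58.1 in R 4.3.3, with a variance trend, for the 6 osmft1 libraries (4 residual degrees of freedom) and for all 12 in the interaction and the WT salt response (8). Fits and the read recovery were tested on simulated data. Same-numbered libraries deviated together with correlations of -0.21, -0.16 and 0.16, so numbers were not taken as pairs. The chi-square of recovered reads per degree of freedom between replicates was 8.09 to 24.8, so no library repeats another.

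The planned gene lists and seed-part markers needed gene names. The gene table used (assembly ASM3414082v1) held 1 of the IDs, and the lists were not applied. The rule for named genes (the largest rises and falls among called IDs with at least 10 FPKM in the higher group and no overlap; for the interaction, the smallest p in each direction at that level) was kept, but required no gene name and took 2 IDs per direction.

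Tried were other pseudocounts, filters and scalings, voom, library weights, a fit of all 12 libraries, a replicate block, Os loci only and leaving out each library. Removal of both osmft1 libraries numbered 1 and of the length trend were chosen after seeing the data. Tables and plots used Python 3.11.15 with pandas 2.3.3, numpy 2.4.6, scipy 1.17.1 and matplotlib 3.10.9.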

Additional observations from a re-analysis of the deposited data

Results flagged for a closer look

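The salt response differed between osmft1 and WT by a test of the difference itself (limma, interaction over all 12 libraries, adjusted p under 0.05) at 3000 members. Of the IDs named, this applied to Os07g0194300, with an interaction of 2.20 in log2(FPKM + 1), and to Os02g0787000 (1.72). It applied in the negative direction to Os07g0693800 (-1.46) and Os04g0403300 (-1.13). All 4 remained called under each of the 17 alternatives run for them, while the count of 3000 moved with single libraries. Groups of 3 libraries were too small for a test of outlying samples.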

How the results depend on the processing

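The counts of called, higher and lower members stayed within 1.5 times under each of the 20 alternatives run for them. The 4 leading IDs remained called in the same direction under all 20. Leaving out 1 library at a time gave 6729 to 8320 called members, 3283 to 4048 higher and 3446 to 4634 lower. For changes of at least 2-fold it gave 1754 to 1926 rises and 1585 to 2000 falls. For falls of at least 8-fold it gave 39 to 115. With a pseudocount of 5, which shrinks differences of low genes by construction, 976 rises and 678 falls reached 2-fold. With a filter of 5 FPKM, which leaves fewer IDs, 1210 falls did. The interaction count ran from 947 to 4334 over the 12 libraries left out in turn, and was 364 without both osmft1 libraries numbered 1. The cause was not tested. With the replicate number as a block, 8007 members were called for salt and 3431 for the interaction. The numbers did not pair the samples, and water library 1 correlated best with salt library 2 (0.38). Estimated library weights, with water library 2 at a weight of 6.57, gave 11106 calls. Counts of 1 to 8 reads limit what can be said of Os06g0498800.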
